A study of Mus musculus with 3 samples.

Results

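The TGF-beta and BMP pathway genes described here were the mouse genes whose symbol, reached through the RefSeq accession of a probe, begins with Bmp, Gdf or Smad plus a number, with Bmpr, Inhb or Acvr, or with Tgfb or Tgfbr plus a number from 1 to 3, together with Nog, Chrd, Fst and Nodal. Of 56 such symbols in the gene table, 50 had a probe, out of 16355 genes named on the array, and 44 of the 50 gave a signal well above background in 1 pool or more. Bmp10, Bmp15, Gdf3, Inhbc, Acvr1c and Smad9 were not well above background on any of the 3 arrays, and Bmp4-ps, Gdf11, Nodal, Smad7, Tgfb1i1 and Tgfbr3l were not analysed here. Transcript levels were compared in whole embryos of 3 groups. The triple null group had the genotype MafF-/-:MafG-/-:MafK-/- at E10.5. The MafG-intact groups, 1 of E10.5 and 1 of E9.5, had the genotype MafF-/-:MafG+/+:MafK-/-. Every group therefore lacked MafF and MafK, small Maf proteins that pair with CNC and BACH factors to bind DNA, and no wild-type group was used. Each group was a single 1-colour array hybridised with RNA of 3 pooled embryos, all of mixed background. No difference therefore has a replicate error, no test was run, and "higher" and "lower" describe these 3 arrays.

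Ligands of the TGF-beta superfamily are secreted dimers that bring type I and type II serine/threonine kinase receptors together on the cell surface. The type II receptor activates the type I receptor, which phosphorylates receptor Smads; these join Smad4 and enter the nucleus, while inhibitory Smads oppose the signal. In the midgestation embryo, BMPs act in heart, limb, dorsal neural tube and germ layer patterning, TGF-betas in vessels, valves and matrix, and Nodal with activin-type ligands in axis formation. Secreted antagonists such as noggin, chordin and follistatin hold ligands away from their receptors.

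A level is given as the log2 processed signal relative to the 75th percentile of all non-control spots of the same array, so 0 is that percentile and each step of 1 is a doubling. Levels of different genes come from different probes and are not set against each other. Spots of probes printed 10 times varied on an array with a median SD of 0.05 to 0.06 at levels from 1 to 4, of 0.08 to 0.11 at levels from -5 to -3 and of 0.18 to 0.19 at levels from -7 to -5, which covers printing and scanning and not embryos. Between 69.1% and 70.4% of probes were well above background on each array. Mafg itself was at background in the triple null pool, at least 173-fold below its MafG-intact level at E10.5. Xist was detected in the MafG-intact pool of E10.5 alone and Ddx3y in both other pools, so the pools of every comparison with that array also differed in sex; no measured member lies on the X or Y chromosome.

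The comparison of triple null with MafG-intact embryos at E10.5 addresses the absence of MafG on a background without its relatives. The antagonist gene Fst and the ligand gene Bmp3 were the members that stood 2-fold or more above the MafG-intact level. Among the 43 members above background on both arrays none was 2-fold below it, while Acvr1b, under background in triple null embryos, had a bound of at least 2.04-fold lower. The higher ones were 2 of 43, beside 0.982% of all genes higher by that much, 4.47% lower and 5.45% in either direction. At the lower threshold of 1.5-fold, 5 members were higher (Bmp2, Bmp3, Bmp8b, Fst and Gdf1), beside 4.12% of all genes, and 7 were lower (Gdf2, Gdf5, Gdf6, Tgfb3, Inhba, Bmpr1b and Bmp1), beside 9.72%. Together 12 of 43 members (27.9%) were 1.5-fold apart, beside 13.8% of all genes. With normexp background correction Bmp8b, Gdf2, Gdf5, Gdf6, Inhba and Bmpr1b of these fell under 1.5-fold. The share of all genes at 1.5-fold with normexp is not reported here. The members' median log2 difference was -0.05, beside 0.06 for all genes. Its sign turned with quantile normalization, to 0.017 beside 0.048 for all genes, and with normexp, to 0.094 beside 0.106. In both settings the members' median stayed below that of all genes.

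The comparison of MafG-intact embryos at E10.5 with those at E9.5 follows a day of development in a shared genotype. In it 4 of 44 members were at least 2-fold lower at E10.5 (Bmp2, Bmp3, Bmp8b and Fst), beside 1.07% of all genes, and 1 was at least 2-fold higher (Gdf2), beside 4.12%. Bmp8b passed only just, at -1.001 on the log2 scale. That made 5 of 44 (11.4%) in either direction, beside 5.20%. At 1.5-fold, 5 members were lower, beside 4.33% of all genes, and 7 were higher, beside 9.26%, or 12 of 44 (27.3%) in all, beside 13.6%. With normexp Gdf1, Gdf2, Gdf5, Inhba, Acvr1b, Tgfbr2 and Bmp1 of these fell under 1.5-fold, while Tgfb3 rose just past it. The median was -0.09, beside -0.05 for all genes. With normexp background correction none of the 5 members reached 2-fold at E10.5 against E9.5, their log2 differences being -0.92 for Bmp2, -0.96 for Bmp3, -0.62 for Bmp8b, -0.98 for Fst and 0.25 for Gdf2.

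The comparison of the triple null pool at E10.5 with the younger MafG-intact pool at E9.5 shows where triple null embryos differ from the earlier stage. None of 43 members differed 2-fold, beside 0.783% of the 12518 genes above background on both arrays, with 0.256% higher and 0.527% lower. At so low a share a count of 0 does not set the members apart. Gdf7 alone passed 1.5-fold, on the lower side, where 1.65% of genes lay, with 1.38% on the higher side and 3.03% on either. Over 43 members above background on all 3 arrays, 29 had a triple null level nearer to the E9.5 than to the E10.5 level of the MafG-intact pools, or 67.4%, beside 72.7% of all genes. The comparisons share arrays in pairs, so a member that stands apart on the MafG-intact E10.5 array appears in both comparisons that use it. Differences of each member in the 3 comparisons are plotted by role.

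**Figure D1:**
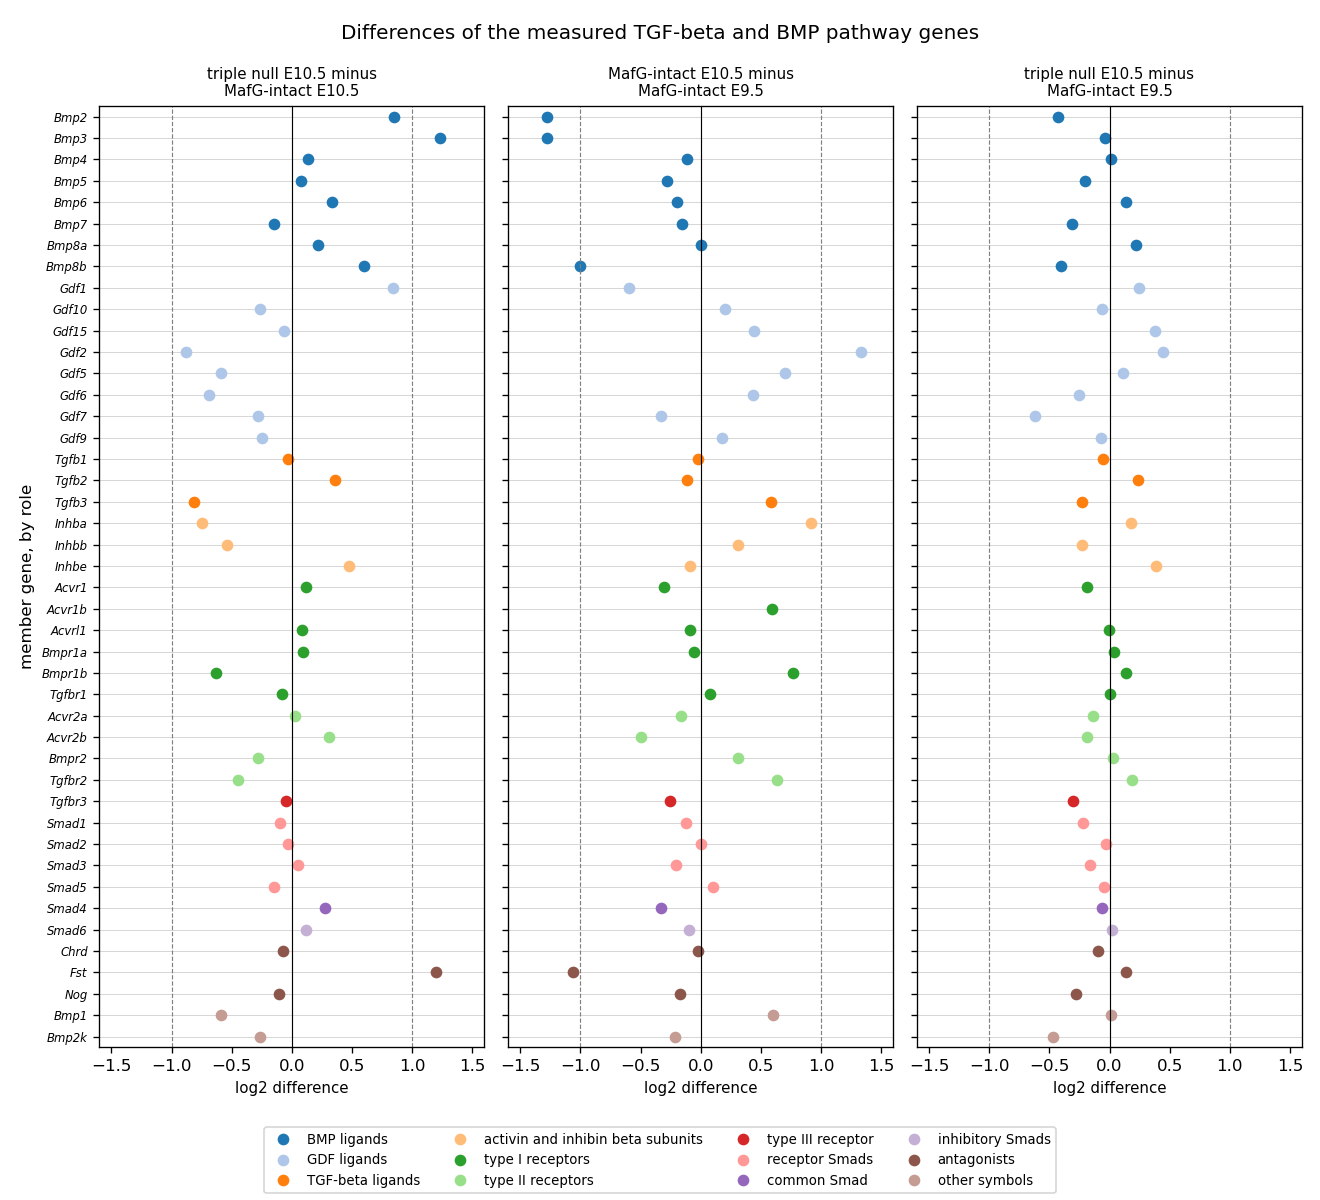
Log2 difference (x axis) of each of 44 measured members (y axis, grouped and coloured by role) in 3 comparisons, 1 panel each, with dashed lines at 2-fold; each point is 1 gene on 1 pair of arrays, and Acvr1b has no point where its triple null value is only a bound. Fst and Bmp3 lie beyond 2-fold in the first panel, Bmp2, Bmp3, Bmp8b, Fst and Gdf2 in the middle panel and no member in the last, while the measured Smad genes lie within 0.33 of 0 in every panel.

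BMP ligand genes leaned towards higher levels in triple null than in MafG-intact embryos of the same age. Of 8 measured, 7 had a difference above 0, with a median of 0.28, while 58.4% of all genes were above 0. Only Bmp2, Bmp3 and Bmp8b, with 1 probe each, reached 1.5-fold. The others above 0 gave 0.13 (Bmp4), 0.08 (Bmp5, probes at 0.27 and -0.11), 0.34 (Bmp6) and 0.22 (Bmp8a, at the low level of -5.74 in triple null). Between the MafG-intact days 7 of 8 were lower at E10.5, with a median of -0.24, beside 57.2% of all genes. Again only Bmp2, Bmp3 and Bmp8b reached 1.5-fold. The count of lower genes was 6 of 8 with the brightest probe of a gene or with only probes detected on all arrays. It was 8 of 8 under normexp, quantile and median scaling and in the authors' value table.

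Bmp3, a family member that opposes the action of other BMPs in bone, had a level of -2.66 in the triple null pool, -3.89 in the MafG-intact pool at E10.5 and -2.61 in the MafG-intact pool at E9.5. The MafG-intact E10.5 array was the low one and the other arrays differed by 0.04. Bmp3 was thus 2.35-fold higher in triple null than in MafG-intact embryos at E10.5, or 0.96 on the log2 scale with normexp, just under 2-fold.

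Bmp2, a ligand required for amnion and heart development, lay at -3.61 in triple null, -4.46 in MafG-intact E10.5 and -3.18 in MafG-intact E9.5 embryos. Its triple null level was between those of the MafG-intact pools, 1.81-fold above the level at E10.5 and 1.35-fold below that at E9.5. Bmp8b, whose product acts in the formation of primordial germ cells, had levels of -5.29, -5.89 and -4.89 in the same order. It was 1.52-fold higher in triple null than in MafG-intact embryos at E10.5, or 0.43 on the log2 scale with normexp, under 1.5-fold. Between the MafG-intact days it was 2.002-fold lower at E10.5, on 1 probe at a level where spot SD was 0.18, so passing 2-fold is not certain. Bmp8b is a close copy of Bmp8a, whose probe differed by 0.22, 0.01 and 0.22 over the comparisons as ordered above, and cross-binding of the probes was not tested.

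Other BMP ligand genes were steady. Bmp4, needed for mesoderm and limb patterning, had levels of 1.16 in triple null, 1.03 in MafG-intact E10.5 and 1.15 in MafG-intact E9.5 embryos. Bmp7, which acts in kidney and eye, had levels of 1.39, 1.54 and 1.70 in that order. Bmp5, Bmp6 and Bmp8a differed by at most 0.34 in any comparison. The probes of Bmp5 lay on different sides of 0 in the first comparison, and those of Bmp6 in the others.

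Growth and differentiation factor genes leaned the other way, although this rested on the background correction. Of 8 measured, 7 were below 0 in triple null against MafG-intact embryos at E10.5, with a median of -0.28, beside 41.6% of all genes; with normexp 3 of 8 were, with a median of 0.02. Between the MafG-intact days 6 of 8 were above 0, with a median of 0.32, beside 42.8% of all genes, and with normexp 3 of 8 were.

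The exception in the first comparison was Gdf1, which with Gdf7 was also below 0 in the second. Gdf1 encodes a partner of Nodal in left-right axis formation. Its level was 2.95 in triple null, 2.12 in MafG-intact E10.5 and 2.71 in MafG-intact E9.5 embryos, and the triple null array held the highest value. Gdf1 was 1.79-fold higher in triple null than in MafG-intact embryos at E10.5 and 1.19-fold higher than at E9.5. In the mouse Gdf1 shares a transcript with Cers1, so its probe may read both.

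Gdf2, which encodes the circulating ligand BMP9 that binds the endothelial receptor of Acvrl1, lay at -5.45 in triple null, -4.56 in MafG-intact E10.5 and -5.89 in MafG-intact E9.5 embryos. It was the member that stood highest at E10.5 against E9.5 in MafG-intact pools (2.51-fold), and was 1.84-fold lower in triple null than in MafG-intact embryos at E10.5. Both values shrank with normexp, to 0.25 and -0.11 on the log2 scale. Its receptor gene Acvrl1 had levels of -3.81, -3.90 and -3.81 in triple null embryos and in MafG-intact embryos of E10.5 and of E9.5.

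Gdf5 and Gdf6, joint and limb skeleton ligands that signal through the receptor of Bmpr1b, were lower in triple null than in MafG-intact embryos at E10.5, together with Bmpr1b. Gdf5 lay at -5.18 in triple null, -4.59 in MafG-intact E10.5 and -5.29 in MafG-intact E9.5 embryos. Gdf6 lay at -3.78, -3.09 and -3.52 in that order. In triple null against MafG-intact embryos at E10.5, the log2 difference of Gdf5 was -0.59 and that of Gdf6 -0.69. With normexp the log2 difference of Gdf5 turned to 0.036 and that of Gdf6 was -0.39. The summed signal of 10 cartilage and limb mesenchyme markers was 3531% of the 75th percentile in triple null, 3511% in MafG-intact E10.5 and 3484% in MafG-intact E9.5 embryos. By gene, 7 of the 10 were below 0 in triple null against MafG-intact embryos at E10.5, with a median of -0.27, among them Lhx9 at -1.34, Prrx1 at -0.69 and Sox9 at -0.57, while Matn4 and Tbx5 were above 0 at 0.70 and 0.65.

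Gdf7, a roof plate ligand that guides and specifies dorsal neurons, was the single member past 1.5-fold in triple null against MafG-intact embryos at E9.5, 1.53-fold lower. Its levels were -6.42 in triple null, -6.14 in MafG-intact E10.5 and -5.80 in MafG-intact E9.5 embryos, near the lowest signals above background (-7.04 to -6.89), and with normexp the difference was -0.20. Its log2 difference from MafG-intact embryos at E10.5 was -0.29, and turned to 0.20 with normexp. Gdf9, Gdf10 and Gdf15 stayed within 0.44 of 0 in all comparisons.

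**Figure D2:**
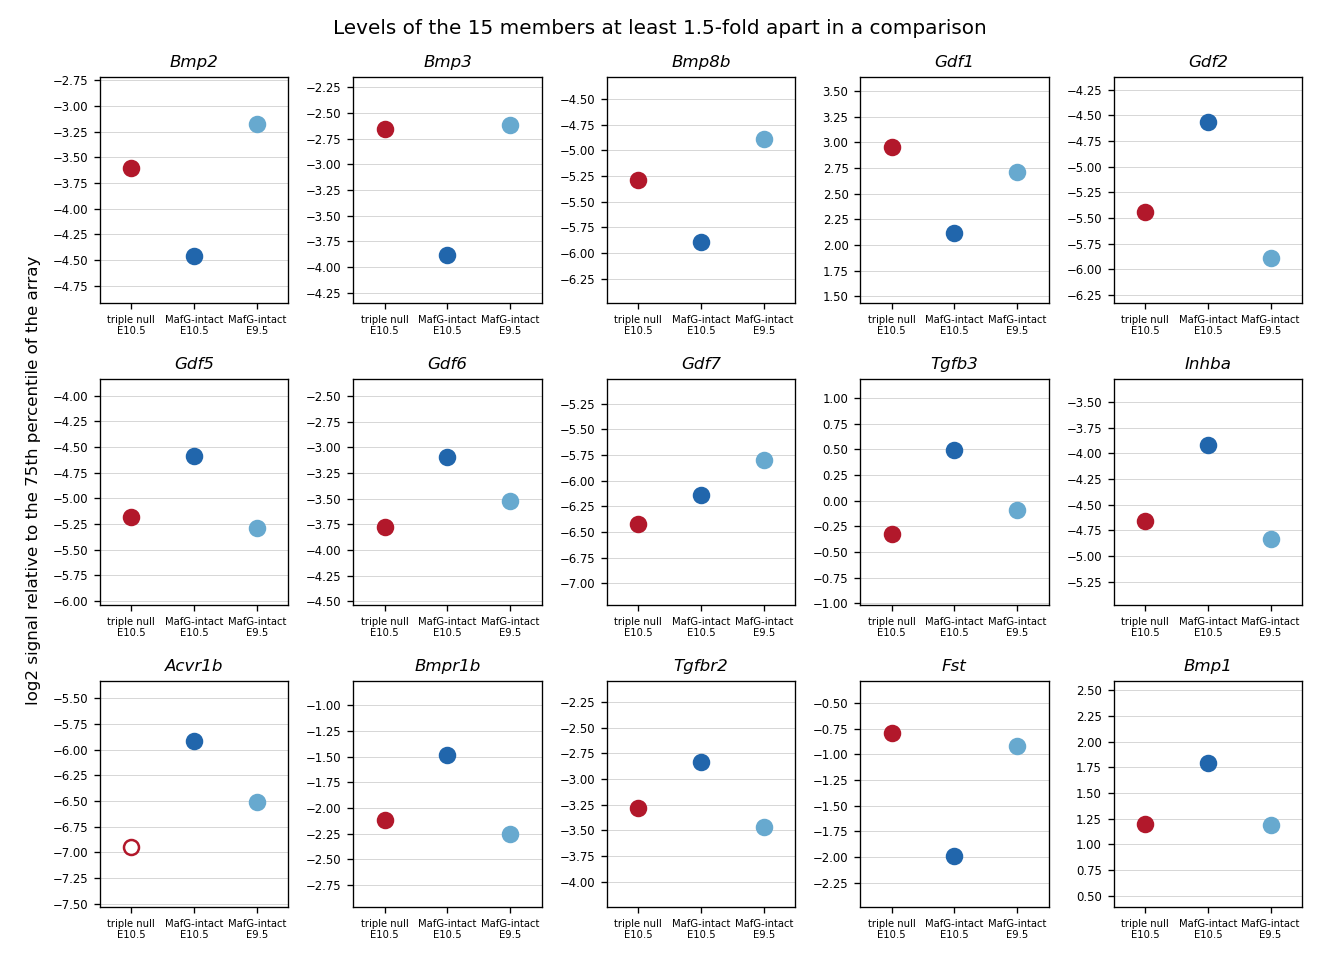
Level (y axis, log2 signal relative to the 75th percentile of the array, each panel spanning 2.2 units) of the 15 members at least 1.5-fold apart in a comparison, on the triple null array, then the MafG-intact arrays of E10.5 and E9.5 (x axis); each point is 1 array and an open point is not well above background. In Bmp3, Fst, Bmpr1b and Bmp1 the triple null and MafG-intact E9.5 points lie within 0.14 of each other and the MafG-intact E10.5 point stands apart.

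Among TGF-beta ligand genes Tgfb3, which acts in palate fusion, was 1.76-fold lower in triple null than in MafG-intact embryos at E10.5. Its levels were -0.32 in triple null, 0.49 in MafG-intact E10.5 and -0.09 in MafG-intact E9.5 embryos, with the triple null array lowest. Tgfb1, a ligand with roles in yolk sac vessels and blood, held levels of -2.15, -2.12 and -2.09 in that order. Tgfb2, needed in heart and skeleton, differed by 0.36, -0.12 and 0.24 over the same comparisons.

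Inhba, which encodes the subunit of activin A, lay at -4.66 in triple null, -3.92 in MafG-intact E10.5 and -4.84 in MafG-intact E9.5 embryos. The MafG-intact E10.5 array was high and the other arrays lay 0.18 apart. Inhba was 1.67-fold lower in triple null than in MafG-intact embryos at E10.5 (-0.74 on the log2 scale), and -0.24 with normexp. Inhbb, the subunit of activin B, differed by -0.54 and Inhbe by 0.47 in that comparison.

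Among the receptor genes Bmpr1b, Tgfbr2 and Acvr1b passed 1.5-fold in some comparison. Bmpr1b, a type I receptor of cartilage condensations, lay at -2.11 in triple null, -1.48 in MafG-intact E10.5 and -2.25 in MafG-intact E9.5 embryos. It was 1.55-fold lower in triple null than in MafG-intact embryos at E10.5 (-0.54 on the log2 scale with normexp, under 1.5-fold). Between the MafG-intact pools it was 1.70-fold higher at E10.5 than at E9.5 (0.65 with normexp). Tgfbr2, the type II receptor of TGF-beta ligands, lay at -3.28, -2.83 and -3.46 in the same order, so it was 1.55-fold higher at E10.5 than at E9.5 (0.15 with normexp). That value averages 2 probes: the one detected on every array gave 0.50, under 1.5-fold, and the other, above background at E10.5 of the MafG-intact pools alone, gave 0.77.

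Acvr1b, a type I receptor for activin and Nodal, did not clear background in triple null embryos. Its bound was at least 2.04-fold below MafG-intact embryos at E10.5. That bound took the dim signal itself, at a level where spot SD was 0.18 to 0.19, so passing 2-fold is not certain. Its signals were near the limit of detection, at -6.95 in triple null, -5.92 in MafG-intact E10.5 and -6.51 in MafG-intact E9.5 embryos. With normexp the difference between the MafG-intact days turned from higher to lower at E10.5 (-0.27).

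The remaining measured receptor genes stayed under 1.5-fold in every comparison. Acvr1 lay at 0.66 in triple null, 0.54 in MafG-intact E10.5 and 0.84 in MafG-intact E9.5 embryos. Acvr2b, a type II receptor of activins and Nodal, lay at 1.96, 1.65 and 2.15 in that order, 1.24-fold higher in triple null than in MafG-intact embryos at E10.5. Bmpr1a, Tgfbr1, Acvr2a, Bmpr2 and Tgfbr3 differed by at most 0.31 in any comparison. Probes of Bmpr1a, Acvr2a and Tgfbr1 lay on different sides of 0 in at least 1 comparison.

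Measured Smad genes differed by at most 0.33 on the log2 scale in any comparison. The receptor Smads that BMP receptors activate, Smad1 and Smad5, differed by -0.10 and -0.15 between triple null and MafG-intact embryos at E10.5. Probes of Smad5 lay on different sides of 0 in both comparisons with the E9.5 pool, and those of Tgfbr2 in triple null against that pool. Those that TGF-beta and activin receptors activate, Smad2 and Smad3, differed by -0.03 and 0.05. Smad4, the shared partner, had levels of 2.88 in triple null, 2.61 in MafG-intact E10.5 and 2.94 in MafG-intact E9.5 embryos; its probes gave 0.06 and 0.49 in the first comparison.

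Smad6, an inhibitory Smad that BMP signalling switches on as feedback, lay at 0.99 in triple null, 0.87 in MafG-intact E10.5 and 0.97 in MafG-intact E9.5 embryos. The 3 levels lay within 0.12 of each other. Id1, Id2 and Id3, common readouts of BMP signalling, had differences of 0.25, 0.08 and 0.16 between triple null and MafG-intact embryos at E10.5.

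Promoter windows from RefSeq (build GRCm38.p6, 250 bases before to 50 after a gene's start) are shown for the Gdf1, Gdf2 and Smad6 genes, an example each of a member high in triple null, high in MafG-intact E10.5 and steady. They were chosen with their matches known, and of the 2 windows RefSeq gives for Gdf1 the one with a match is printed. Capitals mark matches, on either strand, to TGACNNNGC, the core of the element that small Maf heterodimers bind, to a longer Maf element (TGCTGA, any 4 bases, GCA), to the Smad palindrome GTCTAGAC, or to the GATA factor site AGATAAG, which was added after the Gdf2 sequence had been read. The shorter and the longer Maf elements can overlap where a sequence holds both.
Gdf1 (chr8:70329515-70329814, + strand): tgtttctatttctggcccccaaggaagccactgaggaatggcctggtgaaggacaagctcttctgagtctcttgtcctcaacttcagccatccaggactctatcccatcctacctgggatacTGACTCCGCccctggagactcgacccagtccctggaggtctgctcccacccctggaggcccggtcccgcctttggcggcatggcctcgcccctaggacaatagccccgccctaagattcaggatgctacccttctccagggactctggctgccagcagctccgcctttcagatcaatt
Gdf2 (chr14:33940789-33941088, + strand): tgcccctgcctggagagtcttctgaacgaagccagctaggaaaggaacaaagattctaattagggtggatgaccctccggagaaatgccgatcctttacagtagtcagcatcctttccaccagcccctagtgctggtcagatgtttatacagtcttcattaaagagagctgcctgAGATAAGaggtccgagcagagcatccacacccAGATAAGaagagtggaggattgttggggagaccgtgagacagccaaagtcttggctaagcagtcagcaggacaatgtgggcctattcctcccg
Smad6 (chr9:64022010-64022309, - strand): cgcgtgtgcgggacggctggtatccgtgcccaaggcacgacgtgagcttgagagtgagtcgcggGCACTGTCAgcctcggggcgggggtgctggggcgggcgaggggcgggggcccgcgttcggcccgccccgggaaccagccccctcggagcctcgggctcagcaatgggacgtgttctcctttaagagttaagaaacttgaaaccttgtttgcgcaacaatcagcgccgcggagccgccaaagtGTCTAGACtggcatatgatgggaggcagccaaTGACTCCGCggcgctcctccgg

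Gdf1 held 1 TGACNNNGC match, at bases 123 to 131 of the printed window and none in the other, and Smad6 held 2, at bases 65 to 73 and 279 to 287. The Smad palindrome lay at bases 247 to 254 of the Smad6 window, across the start. In Gdf2 both matches were AGATAAG, at bases 176 to 182 and 208 to 214. Over 43 windows of 35 members with a probe, TGACNNNGC was found in 5 (11.6%), beside 12.4% of 32851 windows of all genes, and GTCTAGAC in 1 (2.33%), beside 0.213%. The longer Maf element was found in none of the members' windows, beside 0.387% of all, and AGATAAG in 4 (9.30%), beside 3.04%. The windows with AGATAAG belonged to Bmp10, Bmp8a, Gdf2 and Smad5. Their share thus includes Gdf2, from whose sequence the motif was taken, and Bmp10, which was not above background. No member window had overlapping matches to different motifs. The windows with TGACNNNGC belonged to Bmp6, Gdf1, Smad6, Tgfbr1 and Tgfbr2, which include steady members.

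Among the antagonists Fst stood apart. Fst encodes follistatin, which binds activins and some BMPs, and had a level of -0.79 in triple null, -1.99 in MafG-intact E10.5 and -0.92 in MafG-intact E9.5 embryos. The MafG-intact E10.5 array was low and the other arrays lay 0.14 apart. Fst was 2.30-fold higher in triple null than in MafG-intact embryos at E10.5, and stayed at least 2-fold higher in all 7 alternative settings (1.13 to 1.22 on the log2 scale). Between the MafG-intact days it was 2.09-fold lower at E10.5.

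The BMP antagonist genes Nog and Chrd did not follow it. Nog, which encodes noggin, lay at -3.63 in triple null, -3.52 in MafG-intact E10.5 and -3.35 in MafG-intact E9.5 embryos. Chrd, which encodes chordin, lay at -4.90, -4.82 and -4.80 in that order.

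Further symbols that the pattern takes are not ligands. Bmp1, a protease that trims procollagens and cleaves chordin, lay at 1.20 in triple null, 1.79 in MafG-intact E10.5 and 1.19 in MafG-intact E9.5 embryos, 1.51-fold lower in triple null than in MafG-intact embryos at E10.5. Bmp2k, a kinase, had 3 probes that disagreed. In triple null against MafG-intact embryos at E10.5 its probes gave -0.94, 0.07 and 0.09, and against E9.5 they gave -1.03, -0.14 and -0.25 in the same order. The probe at -0.94 was the brightest, and used alone it would make Bmp2k a member past 2-fold against E9.5.

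**Figure D3:**
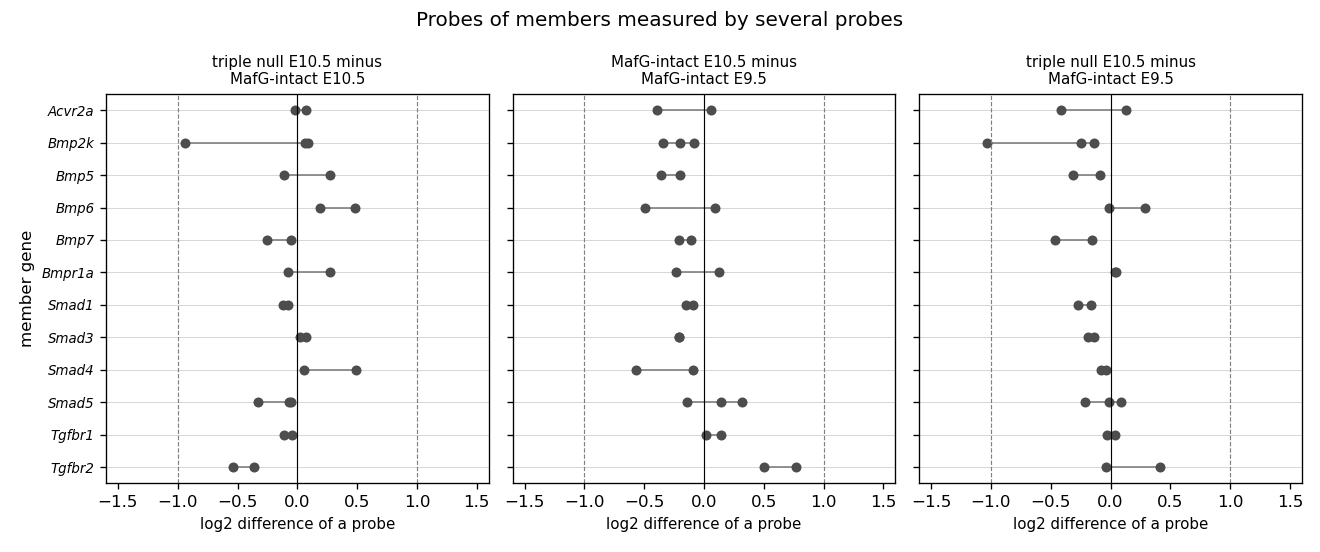
Log2 difference (x axis) of each probe above background on at least 1 array, for the 12 members with several such probes (y axis), in 3 comparisons; each point is 1 probe, a grey bar joins the probes of a gene and dashed lines mark 2-fold. Bmp2k has the widest span in the first and the last panel, 0.94 to 1.03 below 0 at 1 probe, while probes of Smad1 and Smad3 nearly coincide.

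Other genes of the pathway, 89 in 7 lists of targets, modulators and regulators, were read beside the members. Against MafG-intact embryos at E10.5, 7 of 76 measured genes were at least 2-fold lower in triple null (beside 4.47% of all genes). None was at least 2-fold higher. With normexp 3 of 76 were lower, beside 213 of 12526 of all genes with normexp. Between the MafG-intact days 8 of 75 were at least 2-fold higher at E10.5 (beside 4.12%) and none lower. With normexp 4 of 75 were higher, beside 200 of 12511 of all genes with normexp. Quantile normalization gave 1 lower, and Tdgf1, outside this count because it was under background at E10.5, was at least 2.54-fold lower at E10.5 than at E9.5. In triple null against MafG-intact embryos at E9.5 none of 77 was 2-fold apart, beside 0.783% of all genes. Medians were -0.02, -0.01 and -0.03 in these comparisons.

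Extracellular antagonists and modulators had a median of -0.18 in triple null against MafG-intact embryos at E10.5. Of 19, 3 were at least 2-fold lower, beside 4.47% of all genes, and none higher, beside 0.982%. Among the lower ones Nbl1, a BMP antagonist gene of the DAN family, differed by -1.02 (-0.96 with normexp) and the follistatin-like gene Fstl5 by -2.62 (-0.88 with normexp). Fst thus stood higher in triple null than in MafG-intact embryos at E10.5 while Nbl1 and Fstl5 stood lower. Cer1, a Nodal and BMP antagonist gene, differed by 0.79 and Grem1, of limb bud mesenchyme, by 0.34.

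Genes regulated by BMP and Nodal had a median of -0.03 in that comparison, with 2 of 13 (beside 4.47% of all genes) at least 2-fold lower. These were Id4, of the neural tube, at -1.81, and the T-box gene Tbx2, at -1.001 (-0.97 with normexp). Eomes, a T-box target of Nodal that is also made in neurons, was detected at E10.5 of the MafG-intact pools alone, at least 4.84-fold lower in triple null. Msx1 and Msx2, homeobox targets of BMP in limb and neural tube, differed by -0.25 and 0.05. Between the MafG-intact days Lefty1, a Nodal inhibitor gene listed here among targets, antagonists and ligands, was higher at E10.5 by 1.099 (0.27 with normexp).

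TGF-beta target genes had a median of -0.40 in triple null against MafG-intact embryos at E10.5. Of 12, 1 was at least 2-fold lower, beside 4.47% of all genes. That gene was Pmepa1, a feedback inhibitor gene of TGF-beta signalling, at -1.39 (-0.61 with normexp). The matrix genes of the list did not lie on one side of 0: Col1a1, Col1a2, Postn and Tgfbi gave -0.72, -0.65, -0.83 and -0.73 and Fn1 gave 0.48, the highest of the list, while Ccn1 and Ccn2 gave 0.11 and 0.13. Postn and Col1a1 were also lower in triple null than in MafG-intact embryos at E9.5, by -0.80 and -0.63, each short of 2-fold.

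Latency and matrix storage genes had a median of -0.27 in that E10.5 comparison, in which 5.45% of all genes were at least 2-fold apart. None of the 9 measured was, and Itgb6 (-0.79) and Thbs1 (-0.64) lay farthest. Co-receptor genes had a median of -0.0028 with none of 6 at least 2-fold apart, Cfc1, a Nodal co-receptor gene, being farthest at 0.80 and Hjv next at -0.34. Tdgf1, the other Nodal co-receptor gene of that list, was under background in MafG-intact embryos of E10.5 alone and was at least 1.97-fold higher in triple null. Intracellular regulators had a median of 0.12, with Pmepa1 the 1 of 17 at least 2-fold apart, and Ldlrad4 was higher at E10.5 than at E9.5 by 1.08 (0.57 with normexp). Among ligand genes outside the symbol rule Mstn, which encodes the muscle growth inhibitor myostatin, lay at -4.64 in triple null, -2.10 in MafG-intact E10.5 and -4.44 in MafG-intact E9.5 embryos, and the median of 6 was -0.06.

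**Figure D4:**
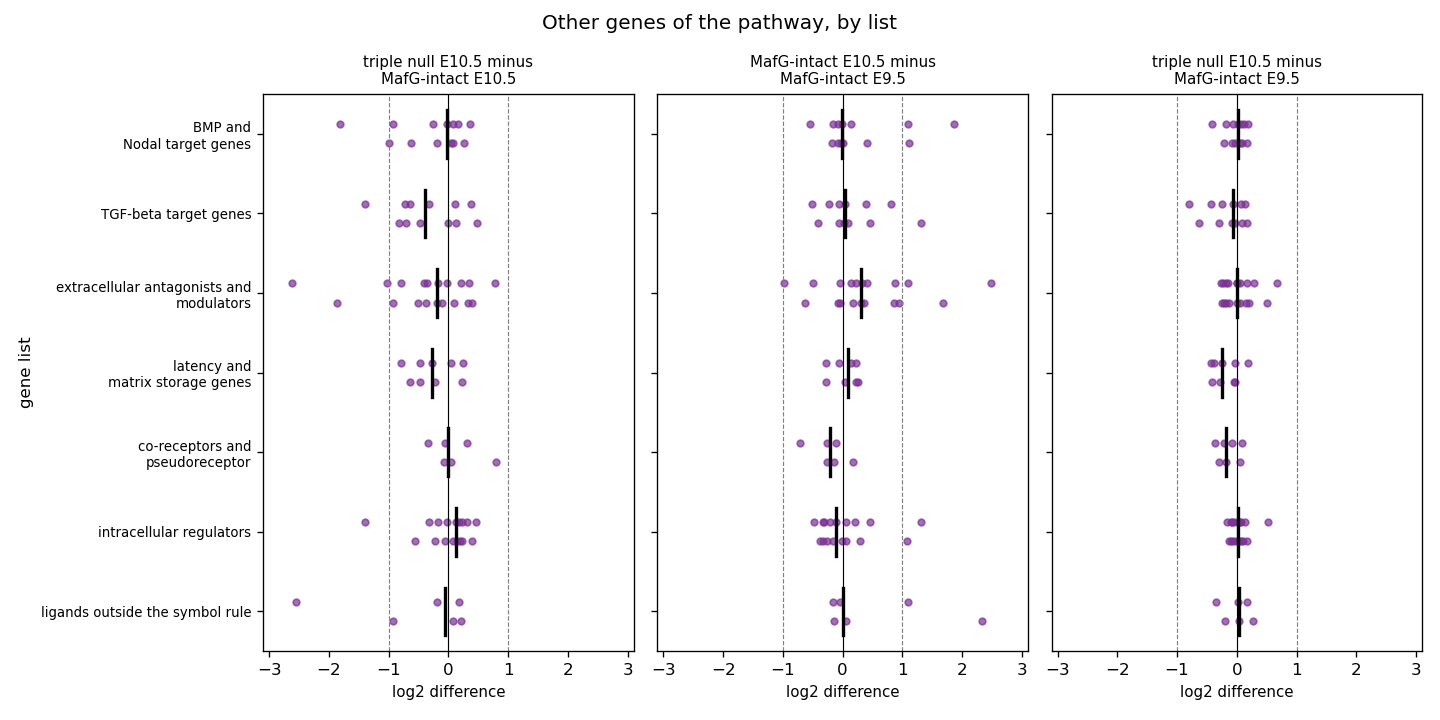
Log2 difference (x axis) of the measured genes of 7 pathway lists (y axis) in 3 comparisons; each point is 1 gene, black bars are list medians, and dashed lines mark 2-fold. All points past 2-fold lie below 0 in the first panel and above 0 in the middle panel, and no gene passes 2-fold in the last.

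Markers of several cell types also differed between these arrays. In whole embryos, fewer cells of a type and less RNA per cell cannot be told apart. The summed signal of 10 neuron markers, all above background on every array, was 1095% of the 75th percentile in triple null, 4165% in MafG-intact E10.5 and 1114% in MafG-intact E9.5 embryos. For 10 erythroid markers, also all above background, it was 29908%, 50762% and 35335% in that order. Macrophage and white cell markers summed to 37.5%, 175.0% and 39.3%, with 4, 7 and 5 of the 8 that had a probe above background and Spi1 above it on no array; Csf1r and Cd68 were not analysed here. Heart muscle markers summed to 20311%, 12591% and 15973%, endothelial markers to 2928%, 2535% and 2738%, yolk sac endoderm markers to 1223%, 2398% and 2216%, and tail bud markers to 806%, 778% and 937%. In triple null against MafG-intact embryos at E10.5, 4 of 9 measured tail bud markers were at least 2-fold higher, beside 0.982% of all genes. They were T, Tbx6, Nkx1-2 and Msgn1, at 1.37, 1.68, 1.63 and 2.32. Another 4 of the 9 were below 0, with Dll3 lowest at -0.76. Between the MafG-intact days 6 of 7 measured yolk sac endoderm markers were below 0 at E10.5, with a median of -1.16. Of the 7, 4 were at least 2-fold lower, beside 1.07% of all genes. The sum of these markers rests mostly on Afp, at 0.52, and Apob and Cubn were not analysed here. Against MafG-intact embryos at E9.5, 5 of 7 measured yolk sac endoderm markers were at least 2-fold lower in triple null, beside 0.527% of all genes. The part of these cell types in the members' differences was not tested.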

How the data were processed

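The deposited scanner tables hold background-subtracted spot intensity on a linear scale, which the authors read with Agilent Feature Extraction 9.5.3.1 (protocol GE1-v5_95_Feb07, array design 014868, annotation build mm7), per the file headers. A second table deposited by the authors held the same intensity, rounded, on a linear scale with no centring (largest difference 0.497%; medians 94.6, 130.0 and 93.9 over non-control spots for triple null embryos and the MafG-intact ones of E10.5 and E9.5). The scanner software's 0 and 1 marks, deposited by the authors beside the intensity, gave detection, outlier and saturation calls and are no score of expression.

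From these, log2 intensity minus the 75th percentile of 43379 non-control spots (1078, 1420 and 1064) was taken. Outlier spots (59, 52 and 83) were left out and no spot was saturated. Of 41170 probes, 22943 had 1 symbol through an accession in a gene table of assembly GRCm38.p6, used for names and chromosomes. Probes that cleared background on any array were averaged, giving 13181 genes. A gene was counted when above background on both arrays of a pair and at least 2-fold apart; otherwise a bound was taken, as the bright level over the higher of the dim signal and the lowest signal above background there. All arrays lay on slide 1 and scan 1. The number of arrays limits the precision.

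Members, classes and lists were chosen with earlier results of these data known. Named members were those at least 1.5-fold apart in a comparison, with all others given by class; in each list, genes past 2-fold or the farthest were named, and the other listed genes given as examples were chosen after their values were seen. Some listed genes are not reported here. Alternatives were normexp (offset 50, on the median spot signal), quantile and median scaling, other probe filters, the brightest probe, other folds and the value table. Steps were tested on simulated data. Software was Python 3.11.15, numpy 2.4.6, pandas 2.3.3, matplotlib 3.10.9, R 4.3.3 and limma 3.58.1.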

Additional observations from a re-analysis of the deposited data

How the results depend on the processing

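With 1 array per group no result has a replicate error. Members at least 2-fold apart in triple null against MafG-intact embryos at E10.5 numbered 2 of 43, beside 5.45% of all genes. They were 1 of 43 with normexp (Fst), beside 2.13%, and 5 of 50 with no filter on dim probes, beside 7.59%. At 1.5-fold they were 12 of 43, beside 13.8%, and at 3-fold 0. Between MafG-intact E10.5 and E9.5 they numbered 5 of 44, beside 5.20% of all genes. They were 0 of 44 with normexp, beside 2.04%, and 8 of 50 with no filter, beside 7.50%. At 1.5-fold they were 12 of 44, beside 13.6%, and at 3-fold 0. For triple null embryos against the MafG-intact E9.5 pool they numbered 0 of 43, beside 0.783% of all genes. With no filter 1 of 50 was 2-fold apart (Bmp15, not above background), beside 3.16%. With the brightest probe 1 of 43 was (Bmp2k), beside 0.703%, and at 1.5-fold 1 of 43 (Gdf7), beside 3.03%. Members' medians moved by more than the spot spread of 0.06 to 0.094 with normexp and 0.017 with quantile normalization in the first comparison, and to -0.15 with normexp and -0.022 with the brightest probe in the second. The medians of all genes in these settings were 0.106 and 0.048 in the first comparison and -0.10 and -0.030 in the second. Counts over all genes were 683, 650 and 98 of 12526, 12511 and 12518, for the comparisons in that order. With normexp they were 267, 255 and 27 of the same totals, and with no filter 1242, 1227 and 517 of 16355. Of 300 values of named members under 7 alternatives, 48 moved by more than the spot spread, 30 of them with normexp, and no member past 2-fold turned its direction. The cause of these shifts was not tested. Spot SD was highest at levels under -5, where Bmp8b, Gdf2, Gdf5, Gdf7 and Acvr1b lay on at least 1 array. No paired analysis was possible because each group holds 1 array.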
